A study of Mus musculus with 3 samples.

Results

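Anxa1 to Anxa7 are 7 members of the annexin family of calcium-dependent membrane-binding proteins. They were picked as a named family, which makes 7 of the 50507 genes in the count table, by a rule that lists gene names. The libraries came from wild-type BL6 mouse embryonic fibroblasts (MEFs) reprogrammed at passage 2 with lentiviral tet-STEMCCA, a doxycycline-inducible cassette of Oct4, Sox2, Klf4 and c-Myc (OSKM), and a second lentivirus for the rtTA activator. Reprogramming started at day 0, when the cells received a medium with 2 ug/mL doxycycline, 3 uM chiron, 0.25 uM of the TGFb inhibitor Alk5i, 50 ug/mL ascorbic acid and LIF. Day00 is thus the state at the start of this medium, and every later day and every transfected group differs from it in the medium and its inhibitors as well as in the induction of OSKM. The time course held 21 libraries of untransfected cells that were only re-plated, 3 for each day from Day00 to Day06. Transfected cells were reverse transfected with RNAiMAX and 40 nM of pooled siRNAs before induction and were collected at reprogramming day 6. They gave 3 libraries with a non-targeting siRNA (nt), 5 libraries labelled Mock, whose transfection mix the labels do not give, and 98 libraries of 33 siRNAs, most of them against chromatin regulators. The viruses were given at an MOI of 1 and no selection of transduced cells is described, so each library pools cells that carry both viruses with any that do not.

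Annexins bind acidic phospholipids when calcium rises, through a conserved core of repeats, and they link membranes to the cytoskeleton. In fibroblasts they are known for exocytosis, endocytosis, the repair of torn plasma membrane and the organisation of actin at the membrane. During the first days of reprogramming fibroblasts lose mesenchymal genes and gain epithelial ones, a change called the mesenchymal-to-epithelial transition.

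Levels are given in CPM, the customary depth-scaled unit, here UMI-corrected counts over the TMM-scaled total of the 3013 genes that passed the low-count filter. Of 129 libraries 127 were kept, with 29656 to 235292 counts each (median 73279). The 2 libraries left out, 1 Mock and 1 siMtf1 library of replicate 3, held 6403 and 7981 counts. At this depth 1 count was worth 4.525 to 40.4 CPM (median 16.24), so a single library could not separate nearby levels of the scarcer annexins. Anxa2 was counted most, with 3991 counts in all and a median of 24 a library, and Anxa4 least, with 447 counts and a median of 3. Anxa1 had 618 counts, Anxa3 1115, Anxa5 1596, Anxa6 761 and Anxa7 884. These totals are not compared between genes. Of the members 6, all but Anxa4, passed the filter, and Anxa4 was followed in a second fit that added listed low-count genes. Each replicate number stands for 1 sequenced pool that held every condition, and the study describes its transfections as done in triplicate and its sequencing replicates as independent. The labels do not say whether the cultures came from separate embryos, so the p-values measure the spread between these libraries.

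In GRCm38 (mm10) coordinates Anxa1 spans chr19:20373428-20390944 on the minus strand and Anxa2 spans chr9:69453620-69491795 on the plus strand. Anxa3 lies at chr5:96793339-96845966 (plus), Anxa4 at chr6:86736840-86793584 (minus) and Anxa5 at chr3:36448923-36475894 (minus). Anxa6 lies at chr11:54979108-55033445 (minus) and Anxa7 at chr14:20455260-20480133 (minus). Exons of Anxa2 overlap the antisense gene Gm16144, exons of Anxa3 overlap Gm42603 on the same strand, and exons of Anxa4 overlap Gm44036 on the opposite strand, so a read in the shared stretch of Anxa3 cannot be assigned by strand. No other annotated gene aligned to a member transcript over at least 200 bases at 90% identity or more.

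The promoters of Anxa2, Anxa5 and Anxa7 are shown because Anxa2 moved up and down over the days, Anxa5 fell and Anxa7 rose, and because they differ in the core promoter letters they hold. Each is the 250 bases before a RefSeq transcript start in GRCm38.p6, 5′ to 3′ on the gene's strand, with matches to the searched motifs in capitals, whichever strand holds them (CCGCCC is the GC box and TGAGTCA the AP-1 site read on the other strand). RefSeq promoters were matched for 5 of the 7 members. Anxa2 is at chr9:69453433-69453682 (plus), Anxa5 at chr3:36475888-36476137 (minus) and the second of the 2 annotated Anxa7 promoters at chr14:20479942-20480191 (minus).
Anxa2: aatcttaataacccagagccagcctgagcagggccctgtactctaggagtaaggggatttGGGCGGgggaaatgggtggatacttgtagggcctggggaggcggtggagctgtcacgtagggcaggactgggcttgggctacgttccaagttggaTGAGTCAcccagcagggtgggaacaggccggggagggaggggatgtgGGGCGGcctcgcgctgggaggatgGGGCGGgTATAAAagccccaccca
Anxa5: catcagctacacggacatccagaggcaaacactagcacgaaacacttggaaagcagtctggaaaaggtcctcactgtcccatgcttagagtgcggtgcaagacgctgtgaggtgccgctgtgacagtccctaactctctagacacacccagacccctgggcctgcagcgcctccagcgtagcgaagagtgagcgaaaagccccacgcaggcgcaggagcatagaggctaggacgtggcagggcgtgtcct
Anxa7: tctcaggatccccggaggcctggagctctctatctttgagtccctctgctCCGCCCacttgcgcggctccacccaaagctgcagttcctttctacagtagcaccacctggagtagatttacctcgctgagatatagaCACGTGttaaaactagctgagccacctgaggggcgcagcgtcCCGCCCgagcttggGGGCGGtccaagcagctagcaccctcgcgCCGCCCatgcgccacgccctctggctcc

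The motifs were searched on both strands as exact letters. They were TATAAA as the TATA box, the letters CCAAT, the GC box as GGGCGG and the site of AP-1 as TGACTCA. The site of TEAD factors was searched as GGAATG, the E-box as CACGTG and the octamer as ATGCAAAT. In the Anxa2 promoter TATAAA stood 17 to 12 bases before the start, GC boxes stood at 190 to 185, 48 to 43 and 24 to 19, and the AP-1 letters at 95 to 89. The Anxa7 promoter shown held 4 GC boxes and the E-box letters at 113 to 108. No motif was found in the Anxa5 promoter. Of 32851 promoters of the same length 12.4% held TATAAA, 32.7% the GC box, 4.46% the AP-1 letters and 6.02% the E-box. GC content was 62.4% for Anxa2, 58.8% for Anxa5 and 62.0% for Anxa7 against a median of 52.4%, with 9, 13 and 16 CpG against a median of 6. These are matches of letters and say nothing of binding in these cells.

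The first comparison asked how the annexins changed between Day00 and Day06 of reprogramming. Of the 7 members 5 changed: Anxa2, Anxa3, Anxa5 and Anxa6 fell and Anxa7 rose. Over all 3013 genes tested 22.2% were called in this comparison, 11.5% lower and 10.7% higher, by edgeR's quasi-likelihood test at a Benjamini-Hochberg adjusted p under 0.05. In bulk samples, fewer cells of a type and less RNA per cell cannot be told apart.

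**Figure D1:**
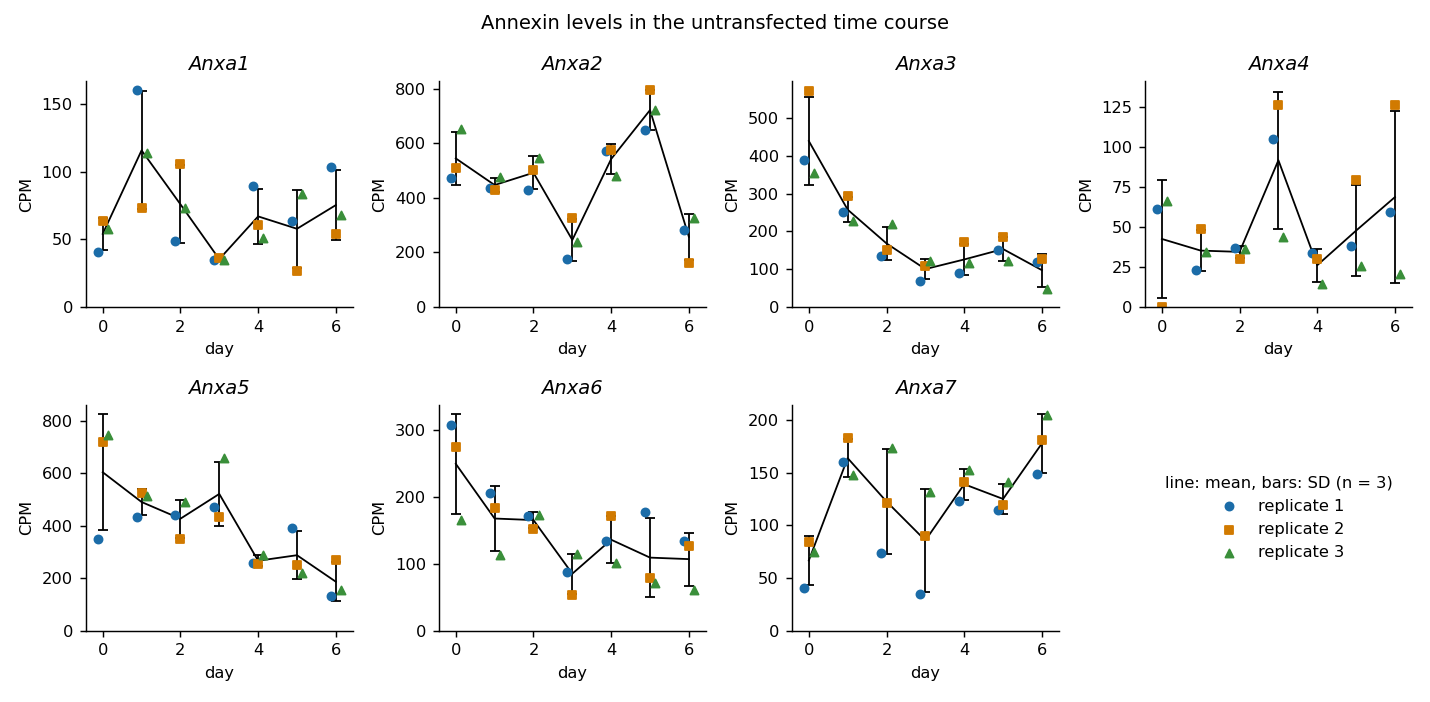
CPM of each annexin (y axis, 1 panel a gene) in the 3 replicates of every day from 0 to 6 (x axis), with points for libraries, a line for the mean and bars for the SD. Anxa3 and Anxa5 stand highest on day 0, with means of 439.2 and 604.6 CPM, and Anxa7 stands highest on day 6, with a mean of 177.9 CPM.

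Anxa3, an annexin that binds phospholipids and has been studied in cell migration, stood at 390.0, 571.7 and 355.9 CPM on Day00. On Day06 its 3 libraries held 118.7, 126.5 and 47.72 CPM. All Day06 libraries lay below all Day00 libraries, and the log2 fold change was −2.30 ± 0.38 (SE), with an adjusted p of 1.556e-07. Anxa5, the phosphatidylserine binder used as a probe of dying cells, was at 348.9, 719.9 and 744.9 CPM on Day00 and at 133.5, 271.1 and 156.8 CPM on Day06. The groups did not overlap, and the log2 fold change was −1.81 ± 0.29, with an adjusted p of 9.034e-08. Both falls kept their call under each of the 10 alternative settings, with log2 fold changes from −2.53 to −2.04 for Anxa3 and from −1.98 to −1.49 for Anxa5.

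Anxa2, which forms a complex with S100a10 at the plasma membrane and binds plasminogen and its activator tPA, was at 472.1, 508.2 and 653.8 CPM on Day00. On Day06 it was at 281.9, 162.7 and 327.2 CPM, all below Day00. The log2 fold change was −1.04 ± 0.26, with an adjusted p of 0.0012 that ran from 1.189e-04 to 0.0930 over the alternatives. Anxa6, an annexin with a duplicated core that acts in endosome traffic and cholesterol transport, fell from 307.9, 275.3 and 165.5 CPM to 133.5, 126.5 and 61.35 CPM, again without overlap. Its log2 fold change of −1.25 ± 0.42 had an adjusted p of 0.0183, which was 0.0786 with no replicate block and 0.0958, 0.0885 and 0.0859 without replicates 1, 2 and 3, so that the call was lost in each of these 4 fits (range over 9 alternatives 0.00601 to 0.311).

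Anxa7, or synexin, a GTP-binding annexin that promotes membrane fusion in secretion, went the other way. It held 41.05, 84.7 and 74.49 CPM on Day00 and 148.4, 180.7 and 204.5 CPM on Day06. All Day06 libraries lay above all Day00 libraries, and the log2 fold change was 1.38 ± 0.46, with an adjusted p of 0.0164. The adjusted p was 0.225 without replicate 3 and ran from 0.0147 to 0.225 over the alternatives.

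Anxa1, the annexin that dampens inflammation through formyl peptide receptors, held 41.05, 63.52 and 57.93 CPM on Day00 and 103.9, 54.22 and 68.17 CPM on Day06. The groups overlapped, and the log2 fold change of 0.41 ± 0.58 had an adjusted p of 0.684. Anxa4, an annexin of epithelial and secretory cells that lowers membrane fluidity, was at 61.58, 0 and 66.21 CPM and then at 59.35, 126.5 and 20.45 CPM. Its log2 fold change was 0.16 ± 0.68 in the second fit (adjusted p 0.916), and its SE was the widest of the 7.

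**Figure D2:**
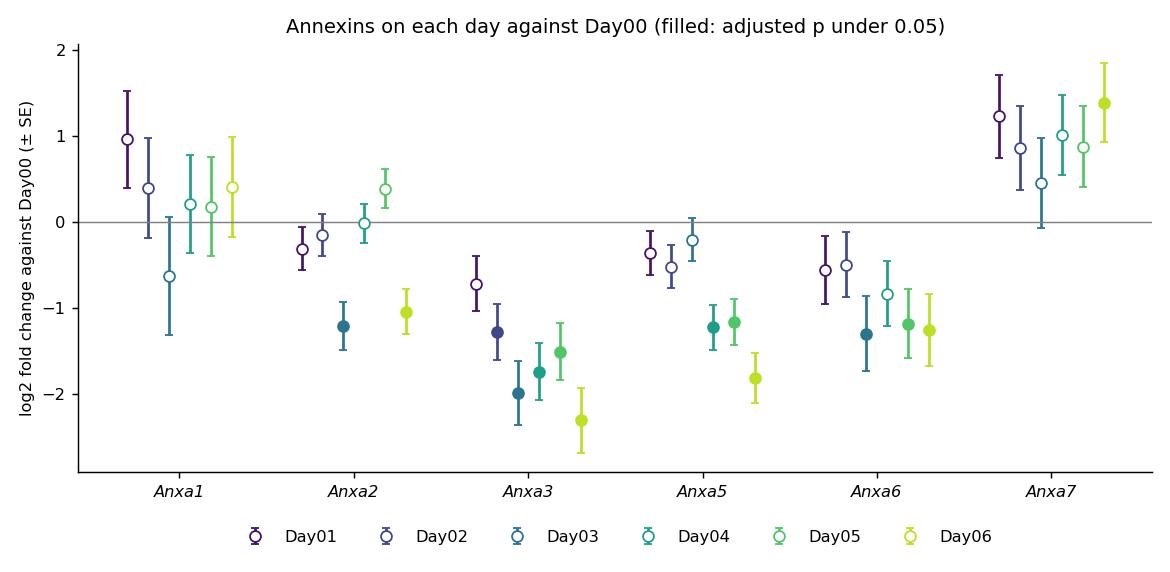
Log2 fold change against Day00 (y axis) of the 6 tested annexins (x axis) on Day01 to Day06 (colours), with bars for the SE and filled points for an adjusted p under 0.05. Anxa3 has filled points below 0 from Day02 to Day06, and the filled point of Anxa7 above 0 is that of Day06.

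The days between show when each annexin left its Day00 level. All these comparisons share the Day00 libraries, so they are not independent of each other. On Day01 no member was called by edgeR, DESeq2 or limma, and 2 had an unadjusted p under 0.05, where 9.89% of all genes were called. Anxa7 was at 160.5, 183.2 and 148.0 CPM on that day, above every Day00 library, and its log2 fold change of 1.23 had an adjusted p of 0.0832. Anxa3 was at 252.2, 293.2 and 227.7 CPM, below every Day00 library but not past the test.

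Anxa3 was the first to be called, on Day02, when 11.6% of all genes were. It stood at 134.7, 151.7 and 218.8 CPM, with a log2 fold change of −1.28 and an adjusted p of 0.0027. Without replicate 1 the adjusted p was 0.0501 and without replicate 2 it was 0.165 (range over the alternatives 6.314e-04 to 0.198). On Day03, with 10.9% of genes called, 3 members were called, all lower. Anxa3 was at 69.95, 108.4 and 123.2 CPM (log2 fold change −1.99, adjusted p 1.14e-05), and it lay below every Day00 library on each day from Day01 to Day06.

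Anxa2 on Day03 was at 174.9, 325.2 and 237.5 CPM, below every Day00 library, with a log2 fold change of −1.21 and an adjusted p of 6.6e-04. Without replicate 3 that adjusted p was 0.0843, the highest of the 10 alternatives, which began at 5.473e-05. Anxa6 on Day03 was at 87.44, 54.2 and 114.4 CPM, also without overlap. Its log2 fold change of −1.30 had an adjusted p of 0.0319, which was 0.105 with no replicate block, 0.24 without replicate 1 and 0.305 without replicate 2 (range 0.0151 to 0.366).

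Day04 had 2 members called and Day05 had 3, where 18.7% and 31.9% of all genes were called. Anxa3 was lower on both days, with log2 fold changes of −1.74 (adjusted p 1.2e-05) and −1.51 (9.0e-05). Anxa5 was not called up to Day03, where it was at 472.2, 433.6 and 659.8 CPM, and it was at 257.9, 253.1 and 290.3 CPM on Day04. Its log2 fold change against Day00 was −1.22 (adjusted p 1.03e-04) on Day04 and −1.16 (1.64e-04) on Day05. On Day05 its libraries of 393.3, 252.2 and 219.1 CPM overlapped those of Day00, and without replicate 3 the adjusted p was 0.114 (range 6.672e-06 to 0.114). Anxa6 on Day05 was at 177.6, 79.64 and 70.87 CPM, overlapping Day00, and its log2 fold change of −1.18 had an adjusted p of 0.0151, or 0.0681 with no replicate block (range 0.00325 to 0.504).

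Comparing each day with the day before gave 4 calls, 3 of them for Anxa2, which fell on Day03, rose on Day04 and fell again on Day06. It went from 428.6, 500.7 and 547.0 CPM on Day02 to 174.9, 325.2 and 237.5 CPM on Day03, a log2 fold change of −1.05 ± 0.28 with an adjusted p of 0.0118, where 2.82% of all genes were called. It then stood at 571.8, 577.0 and 478.9 CPM on Day04, above every Day03 library, a log2 fold change of 1.19 ± 0.27 (adjusted p 4.42e-04, with 11.9% of genes called). On Day05 it reached 647.0, 796.4 and 721.6 CPM, its highest day, and no step of a member was called between Day04 and Day05 by edgeR, DESeq2 or limma (4.78% of genes in edgeR, 0 members with an unadjusted p under 0.05).

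The last step of Anxa2, from Day05 to 281.9, 162.7 and 327.2 CPM on Day06, was a log2 fold change of −1.42 ± 0.24 with an adjusted p of 3.80e-06, where 7.87% of genes were called. It kept its call in 9 of the 10 alternatives and the rise on Day04 did so too, each losing it in limma on the deposited log2 values, at 0.0731 and 0.0981. For the fall on Day03 the adjusted p was 0.174 with no replicate block, 0.0842 without replicate 1 and 0.241 without replicate 3 (range 6.532e-04 to 0.241).

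Anxa5 took its step down between Day03 and Day04, with a log2 fold change of −1.02 ± 0.26 and an adjusted p of 0.0035. The Day04 libraries lay below every Day03 library. Without replicate 3 the adjusted p was 0.129 (range 7.084e-04 to 0.262). Anxa4 had its largest step there, from 104.9, 126.5 and 43.98 CPM to 33.64, 30.37 and 14.51 CPM, without overlap, and its log2 fold change of −1.68 ± 0.65 had an adjusted p of 0.0773. Between Day01 and Day02, where 4.81% of genes were called, edgeR, DESeq2 and limma each called 0 members, and 0 had an unadjusted p under 0.05.

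Tested over all days together by an F test, Anxa2 (adjusted p 1.31e-08), Anxa3 (2.43e-08), Anxa5 (4.126e-09) and Anxa6 (0.041) varied, while 42.5% of all genes were called (for Anxa6 the range over the alternatives was 0.0136 to 0.580). Anxa1 had an adjusted p of 0.358 and Anxa7 of 0.109. Anxa1 ranged from a mean of 35.43 CPM on Day03 to 115.9 CPM on Day01, and its Day01 libraries of 160.5, 73.3 and 113.9 CPM all lay above the Day03 libraries of 34.97, 36.13 and 35.19 CPM. Anxa7 had day means from 66.75 CPM on Day00 to 177.9 CPM on Day06.

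The other annexins of the mouse were scarce. Anxa8 had 348 counts, and its log2 fold change of 1.06 ± 0.78 on Day06 was not called (adjusted p 0.365). Anxa11 had 35 counts, Anxa9 3, Anxa13 1 and Anxa10 0.

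A list of annexin partners was followed beside the members, and 9 of the 20 partners with counts were tested. On Day06 4 of these 9 were lower than on Day00 and 0 higher. Pla2g4a, the cytosolic phospholipase that releases arachidonic acid, had 35 counts on Day00 and 4 on Day06, a log2 fold change of −3.33 ± 0.69 (adjusted p 4.7e-05). S100a4, a calcium-binding protein of motile fibroblasts, had a log2 fold change of −1.42 ± 0.25 (adjusted p 2e-06). Myof, a ferlin of membrane repair, had −1.16 ± 0.37 (adjusted p 0.0121) and Cav1, the caveolae scaffold, −1.03 ± 0.32 (0.0103). None of these 4 overlapped between the days, which adds no support to calls made on the same libraries.

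S100a10, the light chain that pairs with Anxa2, did not pass the test: its mean was 97.3 CPM on Day00 and 158.5 CPM on Day06, a log2 fold change of 0.74 ± 0.42 with an adjusted p of 0.222. Its sign was opposite to that of Anxa2, and the difference between the 2 genes was not tested. S100a6 had a log2 fold change of −0.09 (adjusted p 0.721), Ahnak, a giant scaffold bound by the Anxa2 and S100a10 complex, −0.26 (0.621), Pdcd6 −0.15 (0.870) and Pdcd6ip −1.13 (0.135). Fpr1 had 0 counts in all libraries, Fpr2 3, Plau 6 and Plg 1, so the receptors of Anxa1, Plau and Plg were not measurable at this depth. Of the other partners under the filter, the log2 fold change in the second fit was −0.19 ± 0.58 for S100a11 (adjusted p 0.872), 0.16 ± 0.59 for Plaur (0.895), 0.15 ± 0.60 for Chmp4b (0.908) and −0.18 ± 0.58 for Sri (0.887). Plat had 5 counts on Day00 and 2 on Day06, Plgrkt 2 and 1, Dysf 1 and 1, and Trim72 0 counts in all libraries.

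Against Day00 the count of lower partners was 1 on Day01 (S100a4), 0 on Day02, 1 on Day03 (S100a6), 5 on Day04, 3 on Day05 and 4 on Day06, with 0 higher on any of these days. Over all genes 6.8%, 6.44%, 5.81%, 10.4%, 15% and 11.5% were lower on these days in turn, so the counts up to Day03 were near the background.

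**Figure D3:**
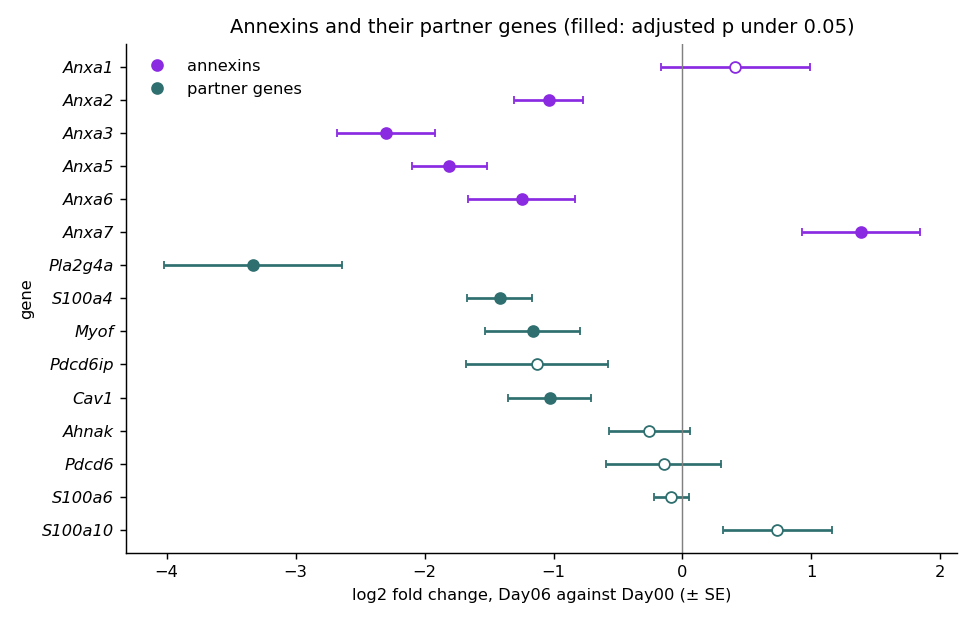
Log2 fold change of Day06 against Day00 (x axis) of the 6 tested annexins and the 9 tested partners (y axis), with bars for the SE and filled points for an adjusted p under 0.05. Pla2g4a lies lowest at −3.33, and S100a10 lies above 0 at 0.74 with an open point.

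Marker genes of cell types moved over the same days. The summed level of 10 fibroblast markers went from 5624 to 7432 CPM on Day00 to 2530 to 3442 CPM on Day06, and that of 4 smooth muscle markers (Acta2, Tagln, Myl9 and Cnn1) from 4331 to 5951 CPM to 126.5 to 474.8 CPM. Of 13 markers tested 9 were lower on Day06 and 2, Dcn and Lum, higher. The 7 epithelial markers summed to 20.5 to 24.8 CPM on Day00, with Cdh1, Epcam, Krt18, Cldn4 and Ocln at 0, and to 74.2 to 253 CPM on Day06, with Ocln at 0. The 3 endothelial markers were at 0 on both days. Leukocyte markers summed to 124.1 to 225.8 CPM on Day00, with Ptprc at 0, and to 18.1 to 89.0 CPM on Day06. The part of these cells in the annexin changes was not tested.

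The nt control was compared with untransfected Day06 cells to ask how transfection itself moved the annexins. The effects of the reagent, the siRNA and the added handling cannot be told apart in it. Anxa7 was lower in nt, at 133.2, 59.82 and 49.02 CPM against 148.4, 180.7 and 204.5 CPM, without overlap. Its log2 fold change was −1.30 ± 0.43 with an adjusted p of 0.0176, in a comparison where 26.6% of all genes were called. Without nt replicate 3 alone the log2 fold change was −0.95 (adjusted p 0.187), without all of replicate 2 the adjusted p was 0.129 and without all of replicate 3 it was 0.384 (range 0.00485 to 0.384). Marker genes moved between the same libraries: of 13 tested, Acta2, Col1a1, Col1a2 and Thy1 were lower in nt and Lum was higher. The smooth muscle markers summed to 73.52 to 83.26 CPM in nt against 126.5 to 474.8 CPM on Day06, and the fibroblast markers to 1863 to 2831 against 2530 to 3442 CPM. Their part in the annexin differences was not tested.

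Anxa2 was called higher in nt, but on 1 library. The nt libraries held 199.8, 254.2 and 784.3 CPM, from 12, 17 and 96 counts, and those of Day06 281.9, 162.7 and 327.2 CPM, so the groups overlapped and only nt replicate 3 lay above all Day06 libraries. The log2 fold change was 0.74 ± 0.26 (adjusted p 0.0248). Nt replicate 3, with an exact Poisson 95% interval of 635.3 to 957.8 CPM, was the highest of all 106 transfected libraries for Anxa2, while nt replicates 1 and 2 ranked 98 and 87 from the highest. Without nt replicate 3 the log2 fold change was −0.08 (adjusted p 0.913), and it was not called with no replicate block either (0.141, range over the alternatives 0.00461 to 0.965). Each comparison of Anxa2 with nt below rests on this library.

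Most transfected libraries lay below Day00 for the annexins that fell in the time course. Anxa5 was below every Day00 library in 106 of 106 transfected libraries, Anxa3 in 105, Anxa6 in 101 and Anxa2 in 78. Anxa1 and Anxa7 lay on both sides, with 54 and 46 libraries above every Day00 library and 26 and 17 below every one. The Day00 libraries used here are those against which the annexins were called in the time course. The transfected libraries also share pools, and the same counts were not made over all genes. These counts are therefore a description and add no separate support to the falls. Among the partners Ahnak (log2 fold change −0.89 ± 0.35, adjusted p 0.0453), Myof (−1.23 ± 0.49, 0.0490) and S100a6 (−0.36 ± 0.13, 0.0330) were lower in nt than on Day06. Mock libraries were compared with nt as a second control, and no member was called by edgeR, DESeq2 or limma or had an unadjusted p under 0.05 (1.56% of all genes, 47, were called in edgeR). Anxa2 in Mock was at 232.2, 240.3, 432.4, 198.6 and 537.4 CPM.

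Each of the 33 siRNAs was then compared with nt, to ask whether an siRNA against a regulator moved an annexin. Of the 198 tests of the 6 filtered members edgeR called 0, as did DESeq2 and limma on the deposited log2 values, and 11 had an unadjusted p under 0.05. Across siRNAs 0.133% to 27.2% of all genes were called (median 1.03%), with siWdr5 at the top. The other settings called 0 to 3 annexin tests, apart from the comparison with the mean of the other conditions given below. All 33 comparisons share the same 3 nt libraries.

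**Figure D4:**
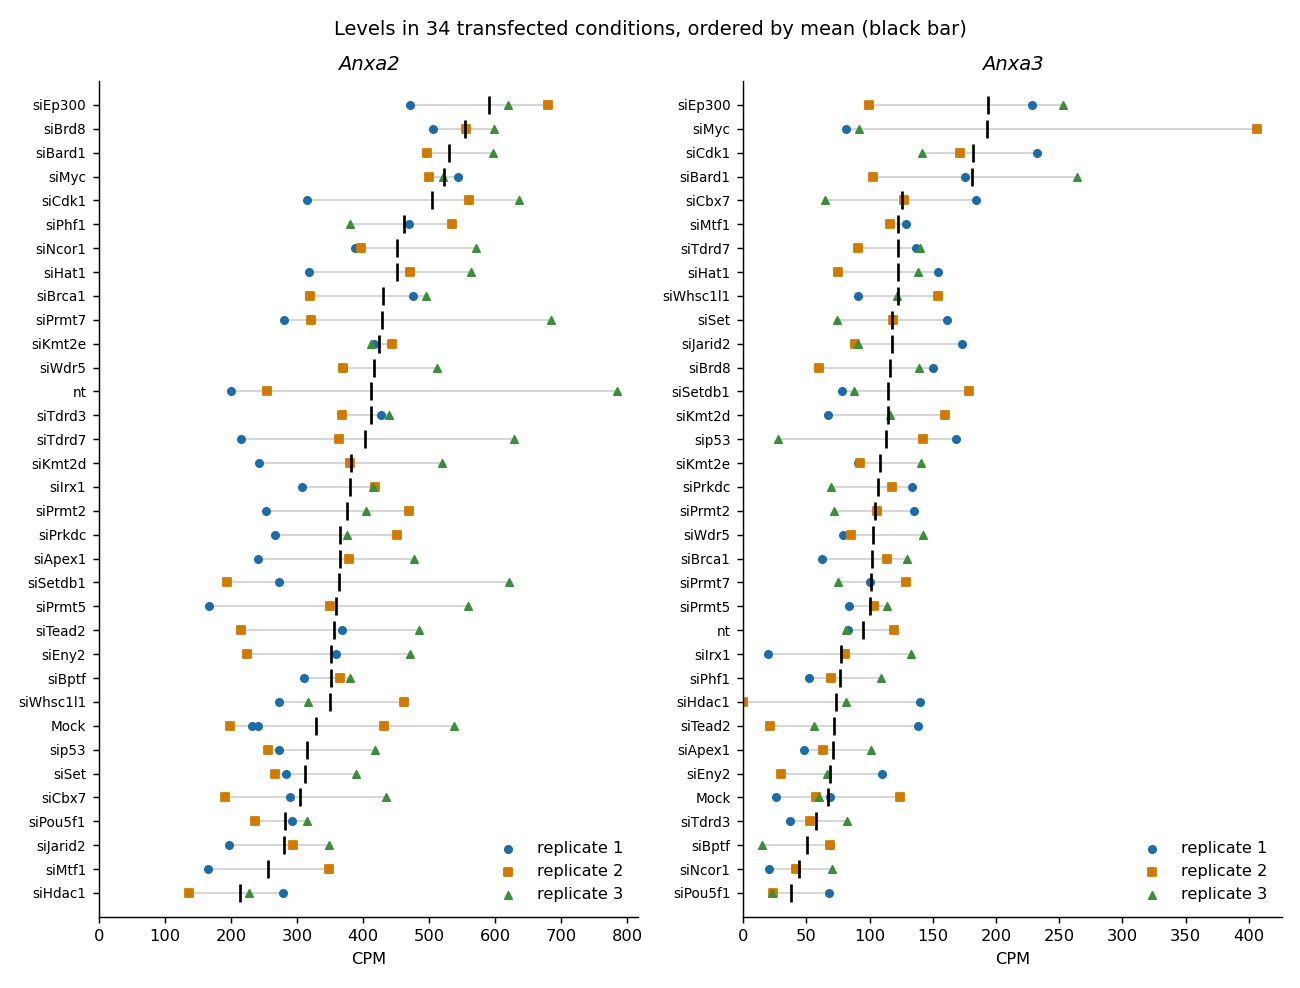
CPM (x axis) of Anxa2 and Anxa3 in 34 of the 35 transfected conditions (y axis, ordered by mean), with points for libraries by replicate and a black bar for the mean. Anxa2 means run from 214.3 CPM in siHdac1 to 590.8 CPM in siEp300, and the single highest Anxa2 library is nt replicate 3 at 784.3 CPM.

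Anxa3 came closest to the threshold. In the libraries labelled siEp300, for a histone acetyltransferase, it was at 228.7, 99.29 and 253.4 CPM against 83.26, 119.6 and 81.69 CPM in nt, with overlap. The log2 fold change was 1.17 ± 0.39 with an adjusted p of 0.0524 (5.68% of all genes were called for this siRNA). With siBard1, for the partner of Brca1 in a ubiquitin ligase, Anxa3 was at 175.7, 102.8 and 263.8 CPM, a log2 fold change of 1.10 ± 0.41 with an adjusted p of 0.0654 (10.3% of genes). Both passed with RLE size factors (0.034 and 0.0479), without replicate 2 (0.035 and 0.0489), against nt joined with Mock (0.0015 and 0.0048) and with Mock alone (0.0035 and 0.0103), over a range of 0.00152 to 0.977 for siEp300 and 0.00484 to 0.745 for siBard1. Anxa3 was lowest with siPou5f1, for Oct4, at 67.53, 23.65 and 22.53 CPM, with a log2 fold change of −1.38 and an adjusted p of 0.228 (5.77% of genes).

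Anxa2 was lowest in the libraries labelled siHdac1, for a histone deacetylase, at 279.0, 136.5 and 227.4 CPM. Its log2 fold change of −1.09 ± 0.34 had an adjusted p of 0.0846 (1.06% of genes were called), and it rested on nt replicate 3, since nt replicates 1 and 2 lay within the siHdac1 values. Without nt replicate 3 it was −0.27 (adjusted p 0.908) and without replicate 3 of all conditions −0.07 (0.982), while without replicate 1 it was −1.57 with an adjusted p of 0.0172, the only call among its alternatives. It was highest with siEp300, at 471.8, 680.9 and 619.9 CPM, a log2 fold change of 0.38 ± 0.23. Without nt replicate 3 that log2 fold change was 1.20 (adjusted p 0.0118) and that of siBard1, at 495.0, 496.9 and 597.0 CPM, was 1.06 (0.0257), against an adjusted p of 0.333 and 0.572 with it (ranges 0.00977 to 1 and 0.0257 to 1).

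The other members were further from a call. Anxa1 ran from a log2 fold change of −0.69 with siApex1 to 1.32 with siIrx1 (adjusted p 0.164, with 2.02% of genes called), Anxa5 from −0.67 with siMyc to 0.65 with siWdr5, and Anxa7 from −1.16 with siWhsc1l1 to 1.01 with siBard1. Anxa6 was lowest with siNcor1, at a log2 fold change of −0.83. Over the alternatives Anxa1 ran from −1.50 to 0.20 with siApex1 and from 0.51 to 1.89 with siIrx1. Anxa5 ran from −1.08 to 0.21 with siMyc and from 0.25 to 0.83 with siWdr5. The median standard error of these log2 fold changes was 0.617 for Anxa1, 0.448 for Anxa5, 0.595 for Anxa6 and 0.541 for Anxa7, against 0.255 for Anxa2.

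The direct comparisons of siWdr5, siBrca1 and siBard1 called no member in edgeR, DESeq2 or limma, and 2 of the 18 tests had an unadjusted p under 0.05, where 9.99% of genes were called for siWdr5 against siBrca1, 8.36% for siWdr5 against siBard1 and 0.863% for siBrca1 against siBard1. The lowest adjusted p was that of Anxa3 in siWdr5 against siBard1 (log2 fold change −0.90 ± 0.39, adjusted p 0.145).

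An F test over the 35 transfected conditions does not depend on nt alone. Anxa3 (adjusted p 3.87e-04) and Anxa2 (0.0022) varied, where 45.1% of all genes were called. Anxa1 (0.106), Anxa7 (0.116), Anxa5 (0.309) and Anxa6 (0.586) were not called, though Anxa7 was called without replicate 1 (0.0366). Without nt replicate 3 the adjusted p was 3.55e-04 for Anxa2 and 4.65e-04 for Anxa3. With no replicate block it was 0.277 for Anxa2 and 0.0112 for Anxa3, and without replicate 3 it was 0.0802 for Anxa3 (ranges 1.759e-05 to 0.277 and 9.118e-05 to 0.0802).

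To see which conditions stood apart, each was compared with the mean of the other 34, an alternative added after the data had been seen. Of 210 tests 8 were called, 7 higher and 1 lower, in 5 conditions. These calls were 3.81% of the members' tests, and over all genes and the same 35 comparisons 4.14% of tests were called (0.133% to 38.7% a condition, median 1.73%), so the members' share was near the background. These comparisons share nearly all their libraries and were not repeated with replicates left out.

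**Figure D5:**
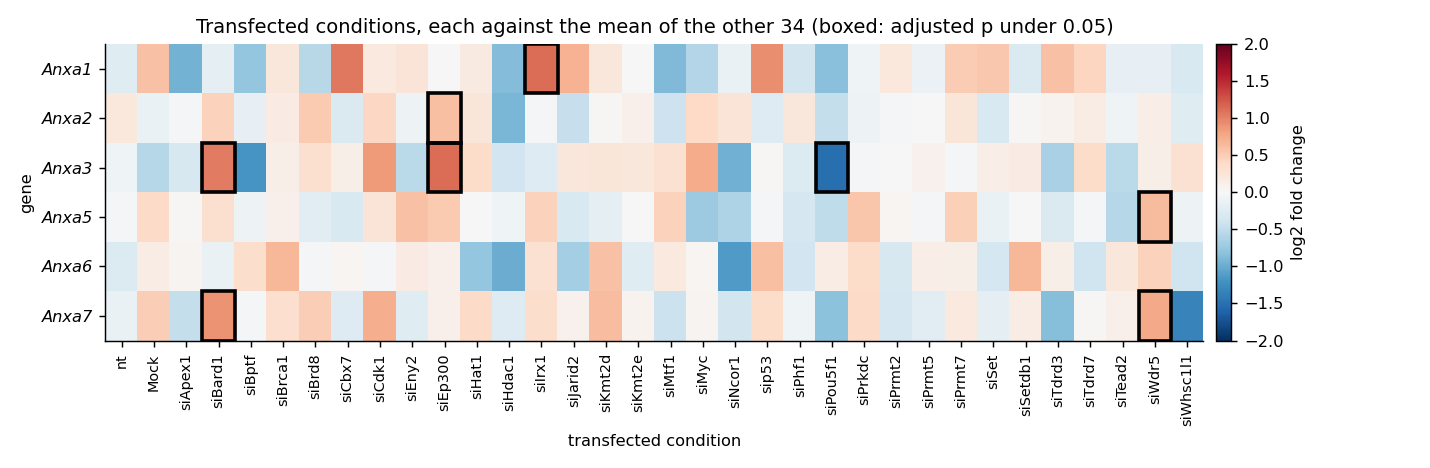
Log2 fold change (colour) of 34 of the 35 transfected conditions (x axis), each against the mean of the other 34 for the 6 tested annexins (y axis), with a box around an adjusted p under 0.05. The 8 boxes lie in siBard1, siEp300, siIrx1, siPou5f1 and siWdr5.

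In the libraries labelled siEp300 Anxa3 was higher by 1.12 ± 0.24 on the log2 scale (adjusted p 2.14e-04) and Anxa2 by 0.60 ± 0.16 (0.00326), where 13.6% of all genes were called. With siBard1 Anxa3 was higher by 1.05 ± 0.26 (adjusted p 0.00223) and Anxa7, at 159.7, 119.9 and 159.7 CPM, by 0.90 ± 0.30 (0.0250), with 14.0% of genes called. With siWdr5, for a core subunit of H3K4 methyltransferase complexes, Anxa5 at 105.7, 270.1 and 170.9 CPM was higher by 0.63 ± 0.26 (0.0459). In the same siWdr5 libraries Anxa7 at 118.9, 199.0 and 104.4 CPM was higher by 0.76 ± 0.31 (0.0385), and 38.7% of all genes were called there.

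Anxa1 was called in 1 condition, siIrx1, for a homeobox factor, where its 158.5, 96.37 and 140.8 CPM were higher by 1.12 ± 0.31 (adjusted p 0.0337) and 1.33% of genes were called. With siPou5f1 Anxa3 had a log2 difference of −1.51 ± 0.53 (adjusted p 0.0337), and 15.6% of genes were called. Anxa6 was called in no condition.

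The level of the target was lower than in nt, by mean CPM, for 20 of the 33 siRNAs, most of them on few counts, so the comparisons are of libraries as labelled and not of a shown loss of each target. Bard1 had 0 counts in the siBard1 libraries and 2 in nt, Pou5f1 had 0 against 4, Irx1 1 against 3 and Wdr5 7 against 9, so these counts were too few to test a knockdown. Ep300 had 17 counts in the libraries labelled siEp300, a mean of 51.5 CPM, against 3 counts and 15.0 CPM in nt and a mean of 35.2 CPM in the other transfected libraries. Hdac1 was at a mean of 122 CPM in the libraries labelled siHdac1 against 102 CPM in nt. Brca1 was at a mean of 22.3 CPM in the libraries labelled siBrca1 against 7.71 CPM in nt, Myc at 8.69 against 7.71 CPM with siMyc, and Nsd3, the target of siWhsc1l1, at 53.6 against 40.8 CPM. The mean level of these 5 targets was not lower than in nt. For Brca1, Bard1 and Wdr5 the paper reports high knockdown by RT-qPCR at an earlier day of reprogramming. It also reports that most single siRNAs against each of them gave colony phenotypes like those of the pooled siRNAs. The few counts here come from a later day and neither show nor contradict that knockdown.

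Marker genes differed between these conditions too. The fibroblast markers summed to 1863 to 2831 CPM in nt, 4900 to 5591 CPM with siWdr5, 3041 to 3705 CPM with siBard1, 2482 to 3860 CPM with siEp300, 991.5 to 1348 CPM with siPou5f1, and to 2447 to 3089 CPM with siIrx1, where the marker Col1a1 was called higher. Smooth muscle markers summed to 73.52 to 83.26 CPM in nt, 445.5 to 750.5 CPM with siBard1, 411.4 to 1001 CPM with siEp300, 383.0 to 611.2 CPM with siWdr5, 219 to 366.5 CPM with siIrx1 and 112.7 to 378.4 CPM with siPou5f1. With siPou5f1 the fibroblast sum was below nt and the smooth muscle sum above it. Epithelial markers summed to 106.2 to 149.9 CPM in nt, 0 to 69.42 CPM with siBard1, 26.41 to 56.86 CPM with siWdr5, 85.78 to 184.4 CPM with siEp300, 59.43 to 144.5 CPM with siIrx1 and 56.34 to 141.9 CPM with siPou5f1. Their part in the annexin levels was not tested.

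Of the 9 partners tested against nt, 3 were higher with siWdr5, 3 with siBard1 and 1 in the libraries labelled siEp300, with 0 lower in any of these, where 12.2%, 5.54% and 3.02% of all genes were higher. With siWdr5 these were Ahnak (log2 fold change 1.95 ± 0.31, adjusted p 1.13e-07), Myof (1.87 ± 0.46, 7.784e-04) and Pdcd6ip (2.30 ± 0.71, 0.00906), the last a protein of endosome sorting and membrane repair. With siBard1 they were Myof (1.60 ± 0.47, 0.0136), Cav1 (1.20 ± 0.33, 0.0069) and S100a6 (0.50 ± 0.13, 0.00545), and with siEp300 Ahnak (1.46 ± 0.32, 6.976e-04). Ahnak was also called higher with siBrca1, where 2.49% of all genes were higher. With siPou5f1 S100a10, the Anxa2 light chain, was higher (1.18 ± 0.33, 0.0145) and S100a6 lower (−0.90 ± 0.15, 5.733e-07). These S100 calls were not particular to siPou5f1: S100a6 was also lower in the libraries labelled siHdac1 (−0.82 ± 0.15, 1.002e-04) and with siApex1, siBptf, siEny2, siNcor1 and siPrkdc, and S100a10 was also higher with siNcor1 and siKmt2e. Over all genes 3.58% were higher and 2.19% lower with siPou5f1.

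Ordered over all 42 conditions by mean level, Anxa3, Anxa5 and Anxa6 had Day00 at the top, with 439.2, 604.6 and 249.6 CPM, and siPou5f1 (37.91 CPM), siNcor1 (71.34 CPM) and siHdac1 (27.62 CPM) at the bottom. Anxa2 ran from 214.3 CPM in siHdac1 to 721.7 CPM on Day05, and Anxa7 from 37.04 CPM in siWhsc1l1 to 177.9 CPM on Day06. Anxa1 ran from 29.54 CPM in siApex1 to 141.1 CPM in siCbx7, and Anxa4 from 26.17 CPM on Day04 to 93.88 CPM in siCbx7. Neighbours in these orders were hardly separable: of the 41 neighbouring pairs 39 to 41 differed by less than the larger of their SDs, depending on the member, and among the 35 transfected conditions all 34 did for every member.

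By the Pearson correlation of condition means over the 42 conditions, the genes most like Anxa5 were Cryab, a small heat shock protein (r = 0.893), Cald1, the actin-binding caldesmon (0.872), and Pdlim5 (0.869). For Anxa3 they were the tropomyosin Tpm4 (0.785), Pmepa1 (0.773) and Lpp (0.761), and for Anxa6 the calponin Cnn3 (0.744), Cdc42ep3 (0.742) and Epb41l3 (0.740). For Anxa7 they were Zmat3 (0.672), Ptrf (0.665) and Mtap (0.654), and for Anxa2 the mitochondrial channel Vdac3 (0.572), the tropomyosin Tpm2 (0.563) and Il1rl1 (0.559). Anxa1 had the calmodulin gene Calm3 (0.474), Tmem35a (0.448) and Arxes2 (0.413). Between members r was 0.685 for Anxa5 and Anxa6, 0.565 for Anxa3 and Anxa5, 0.532 for Anxa3 and Anxa6 and 0.0333 for Anxa1 and Anxa2. These are descriptions, since the conditions share pools, depth and the Day00 to Day06 change.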

How the data were processed

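CEL-Seq2 libraries of 3 sequenced pools were analysed, and each library's condition was read from its column name. Reads were aligned by the authors to mm10 (GRCm38) with Bowtie2 and counted with the CEL-Seq2 pipeline, and the count table they deposited holds UMI-corrected counts per gene. A deposited table of log2 normalized values, from which the authors had regressed the batch, set which libraries were kept. Its values were tested in 1 alternative only. Libraries labelled Mock share column names. Where both tables held the same number of columns of a name, these were matched in column order. The Mock columns of replicate 3 were matched by correlation (r = 0.924 for the library kept, 0.0172 for the other).

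Counts of 127 libraries were scaled by TMM, filtered by condition with filterByExpr to 3013 genes, and fitted with edgeR's quasi-likelihood test (edgeR 4.0.16, limma 3.58.1, DESeq2 1.42.0, R 4.3.3) with condition and replicate terms (residual df 83). Adjusted p values are Benjamini-Hochberg over all genes tested, with a threshold of 0.05, and SE follows from the F statistic. The replicate number marks a shared pool and was kept as a block. Deviations from condition means correlated with a median r of 0.0981 within pools and −0.0685 between them. Of 131 pairs of replicates 0 agreed within sampling noise. The script was tested on simulated data.

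The rule names the 7 members and takes no measured value, but the family, the partner list and the markers were chosen with earlier results of these data known. All members are named, with the listed partners and the 3 genes of highest Pearson r to each tested member, and in the siRNA comparisons the members past the threshold and the extremes. Counting intervals cover counting error only. Alternatives were RLE factors, no low-count filter, DESeq2, limma on the deposited log2 values, no replicate block, each replicate left out, the compared conditions alone, libraries of at least 40000 counts and other controls. The result of 1 siRNA and of 1 partner gene is not reported here.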

Additional observations from a re-analysis of the deposited data

How the results depend on the processing

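Anxa3 and Anxa5 kept their Day06 fall under every setting tried. Followed over 262 alternatives were 25 single values, 20 of them called and the rest siRNA values of Anxa2 and Anxa3. Among these the direction turned only for Anxa2 in nt against Day06. Its log2 fold change was −0.079 without nt replicate 3 and ran from −0.034 to 1.09 with a replicate of all conditions left out. The cause was not tested. With RLE size factors the median gene on Day06 stood at −0.11 on the log2 scale against Day00, from 0.05 with TMM, and the 5 called members kept their direction. Calls on Day06 numbered 5, but 3 in limma on the deposited log2 values, 2 without the low-count filter and 3 to 4 with a replicate left out. They numbered 3 with the compared conditions alone, where Anxa6 and Anxa7 fell under that fit's low-count filter and were not tested. Calls on the other days numbered 9, but 5 without the filter and 6 to 7 with a replicate left out. Steps between days numbered 4, but 0 in limma, 2 without the filter and 2 to 4 with a replicate left out. In nt against Day06 the 2 calls became 1 with RLE factors, 1 in DESeq2, 0 in limma, 0 without the filter, 0 without nt replicate 3 and 0 to 2 with a replicate left out. For the siRNAs the 0 calls became 2 with RLE factors, 2 with nt and Mock together, 3 with Mock alone, 2 without nt replicate 3, 8 against the mean of the other conditions and 1 to 2 with a replicate left out. The controls other than nt with Mock, and the omission of nt replicate 3, were chosen after the data had been seen. The F test over transfected conditions called 2 members, and 1 to 3 with a replicate left out. Of the 18 genes most like the members 5 were shared with Spearman's rho.

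Summed over the 49 comparisons of 2 conditions, with a gene counted once in each comparison that called it, calls numbered 8123. They numbered 3845 in limma, 4136 without the filter and 3351 to 5761 with a replicate left out. These settings test unlike numbers of genes, 10568 in limma and 30778 without the filter against 3013. With no replicate block this pairing of libraries by pool was ignored. The summed calls then numbered 4351, nt against Day06 had 1 annexin call and the F test over transfected conditions 1. The block changed no other count of annexin calls by more than 1.5 times. Depth limits the scarcer annexins, since 3 counts were worth 13.57 to 121.2 CPM a library.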
